A study of Penicillium citrinum with 6 samples.

Results

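Pectin lyases and pectate lyases are the enzymes with which fungi cut the pectin backbone of plant cell walls by elimination. In *Penicillium citrinum*, 5 genes were annotated with these names in the deposited tables, of 9385 genes in all, and all 5 are described here. They are all the genes with these product names: PCI_6944 and PCI_0131 (both pectin lyase A), PCI_5120 (pectin lyase F), PCI_4885 (pectate lyase A) and PCI_0625 (pectate lyase D). The choice of these names was made with earlier results of these data known. Their transcripts were followed in wild-type mycelium grown from conidia either on plates of Czapek-Dox medium, whose carbon source is sucrose, or on tobacco leaves, which the labels call flured. The 6 RNA-seq libraries form 3 groups of 2: CK2D (plates, day 2), TL2D (leaves, day 2) and TL3D (leaves, day 3). The codes were matched to plates and leaves through the sampling days, since plates were taken at day 2 only. No plate library of day 3 was analysed here, so TL3D differs from CK2D in both substrate and age. Nothing in the labels says whether replicates were separate cultures, and the p-values below therefore measure the spread between these libraries, which may be technical.

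Pectin is a galacturonic acid polymer that glues neighbouring plant cells together and fills their primary walls. Pectin lyases prefer backbone whose acid groups are methyl esterified, whereas pectate lyases act on backbone without those esters and usually depend on calcium. Polygalacturonases cut the same backbone by hydrolysis, pectinesterases remove the methyl groups, and the released galacturonic acid is taken up and broken down inside the fungal cell. In related fungi of the genus *Aspergillus*, genes of these families are typically low on sugars and high on pectin.

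Levels are FPKM (fragments relative to gene length and to the fragments of the whole library), so genes can be compared with one another on this scale. FPKM of a library summed to between 582600 and 614206, and between 7906 and 8217 genes reached 1 FPKM. The reads behind these values are not known, so no counting interval or limit of detection is given. The TL2D replicates were the least alike. Across genes, which are no independent replicates, the log2 values of the TL2D pair correlated at 0.982, against 0.996 for each other pair, and they lay at least 2-fold apart in 360 of 8407 genes against 18 and 10 in the other pairs. Fungal housekeeping and hyphal wall genes were searched by actin, tubulin, elongation factor, chitin synthase and glycolytic marker names. In each group 68 of 72 such genes reached 1 FPKM in both libraries, and their summed level was 11135 to 13467 FPKM over all libraries. The word actin also matched names such as interacting, so this list is broad. It cannot tell mycelium from conidiophores, whose markers are given below. A gene's FPKM is a share of the library, and fewer cells with a transcript cannot be told apart from less of it in each cell.

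On plates the lyase transcripts were close to the bottom of the expressed range. PCI_6944 had 0.845 and 1.81 FPKM in the CK2D libraries, which placed it at rank 8137 and 7805 of all genes. PCI_0131 had 0.324 and 0.208 FPKM there, and PCI_5120 had 0.217 and 0.481. The pectate lyase genes were no higher: PCI_4885 stood at 0.202 FPKM in replicate 1 and was listed at 0 in replicate 2, and PCI_0625 had 0.0808 and 0.186. PCI_6944 was the highest of the 5 in both libraries, while the order of the other 4 changed between the replicates. All values of those 4 were under 1 FPKM.

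**Figure D1:**
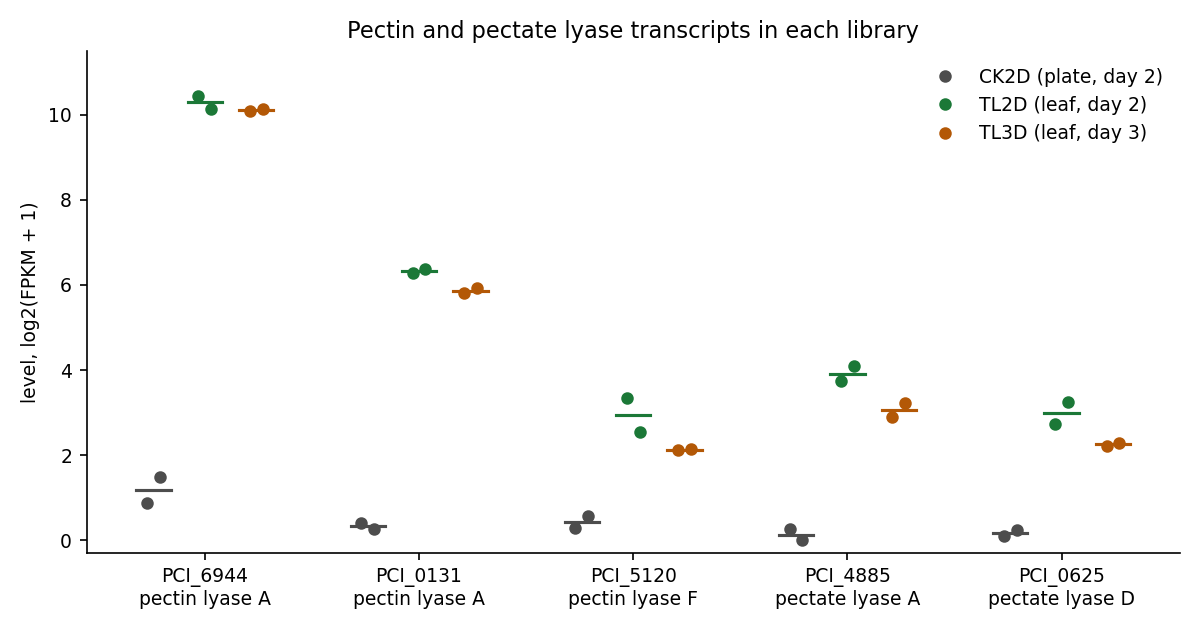
Transcript levels of the 5 lyase genes on a log2(FPKM + 1) axis, with 1 point per library and a short line at each group's mean (n = 2 libraries per group). In every gene both leaf groups lie above the plate libraries, and PCI_6944, between 1078 and 1388 FPKM on leaves, lies far above the other 4.

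On leaves at day 2 all 5 genes were higher than on plates, and they spread over a wide range of levels. PCI_6944 reached 1388 and 1123 FPKM in the TL2D libraries (1256 ± 187, SD, n = 2), rank 51 and 88 of all genes. PCI_0131, which carries the same product name, reached 76.3 and 82.3 FPKM (79.3 ± 4.28). The ratio of PCI_6944 to PCI_0131 was 18.2 and 13.6 in these libraries, so the pair did not contribute equally to pectin lyase A transcripts. The way reads were divided between similar copies is not given in the sources used here, and the share of each of the pair is uncertain to that extent. PCI_5120, the pectin lyase F gene, had 9.15 and 4.79 FPKM.

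Of the pectate lyase genes, PCI_4885 had 12.3 and 16.2 FPKM in TL2D. PCI_0625 had 5.61 and 8.52 FPKM. The order at day 2 was thus PCI_6944, PCI_0131 and PCI_4885 with no overlap between neighbours. PCI_5120 and PCI_0625 followed, and their libraries overlapped. PCI_6944 made up 93.1% and 90.9% of the summed FPKM of the 5 genes, and PCI_0131 a further 5.11% and 6.66%.

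The comparison of TL2D with CK2D asks how mycelium on leaves differs from mycelium on plates of the same age. By limma on log2(FPKM + 1), adjusted over all 8286 genes tested, all 5 lyase genes rose (adjusted p under 0.05), where 24.8% of all tested genes did. Every lyase gene was under 1 FPKM in at least 1 plate library. All 5 thus passed the filter on low values only through their leaf libraries, so the count of rises is given as a description. PCI_6944 rose by 9.10 ± 0.24 (log2 ± SE, adjusted p = 0.000167, higher in both leaf libraries), the largest fitted rise of all tested genes with an added constant of 1 FPKM. With 0.1 FPKM it came 2nd, behind endo-1,4-beta-xylanase A (PCI_7049, 10.13 against 9.86). PCI_0131 rose by 5.99 ± 0.13 (adjusted p = 0.000101) and was number 17 of all rises by size.

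The members of lower level had smaller fitted rises. PCI_4885 rose by 3.79 ± 0.20 (adjusted p = 0.000922), PCI_0625 by 2.81 ± 0.23 (adjusted p = 0.00201) and PCI_5120 by 2.51 ± 0.32 (adjusted p = 0.00523). Among all rises by size these were numbers 72, 143 and 174. In each of the 5 genes both leaf libraries lay above both plate libraries, as in 36.6% of tested genes. The call of PCI_5120 was lost without CK2D replicate 1 (log2 2.37), and it held without each of the other libraries. The sizes depend on the added constant, since plate levels were under or near it. With 0.1 in place of 1 FPKM, PCI_0131 rose by 7.78, PCI_4885 by 6.36, PCI_0625 by 4.95 and PCI_5120 by 3.97.

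As ratios of mean FPKM, the leaf level of PCI_0131 at day 2 was 298 times the plate level, that of PCI_0625 52.9 times and that of PCI_5120 20.0 times. These ratios rest on plate means of 0.266, 0.133 and 0.349 FPKM. No ratio is given for PCI_4885, which 1 plate library lists at 0. Under 1 FPKM in both plate libraries and at least 1 FPKM in all 4 leaf libraries were 4 of the 5 lyase genes, against 161 of all 9385 genes (1.72%). PCI_6944 missed that description only through its 1.81 FPKM in CK2D replicate 2.

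**Figure D2:**
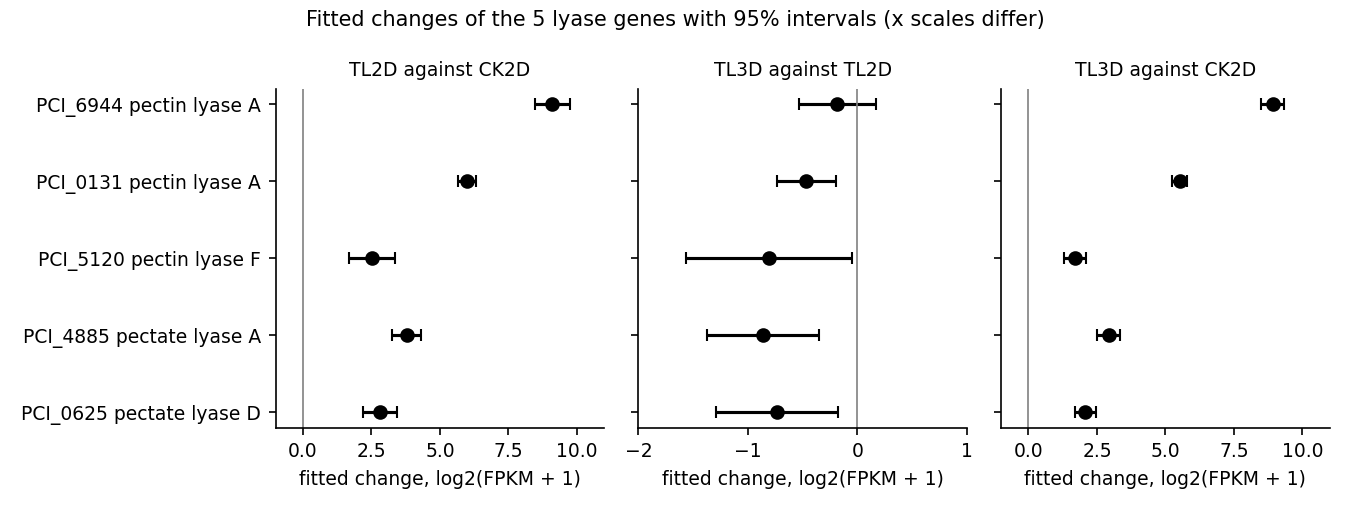
Fitted changes of the 5 genes on the log2(FPKM + 1) scale with their 95% intervals from limma (2 libraries against 2), 1 panel per comparison with its own x scale. The intervals of both comparisons with CK2D lie above 0 in all 5 genes, and for TL3D against TL2D only the interval of PCI_6944, from −0.54 to 0.17, includes 0.

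At day 3 on leaves the 5 genes stayed far above their plate levels. PCI_6944 had 1078 and 1121 FPKM in the TL3D libraries (1100 ± 30.6), rank 72 and 69 of all genes. PCI_0131 had 54.8 and 59.5 FPKM, and the ratio of PCI_6944 to it was 19.7 and 18.8. PCI_5120 had 3.36 and 3.39 FPKM. PCI_4885 had 6.44 and 8.34 FPKM, and PCI_0625 had 3.66 and 3.87. In this group no neighbouring members overlapped, and the order of levels was PCI_6944, PCI_0131, PCI_4885, PCI_0625, PCI_5120. The last pair lay close together, at 3.66 and 3.39 FPKM in their nearest libraries.

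Against CK2D, all 5 genes were called higher in TL3D, where 28.1% of the 8356 tested genes were. Here too all 5 genes were tested only because of their leaf libraries, and nothing is read from this count. The fitted rise was 8.92 ± 0.18 for PCI_6944 (adjusted p = 6.5e-08), the largest of all tested genes with either added constant. By the ratio of mean FPKM it was 827-fold, number 3 among genes above 0 in both plate libraries, where PCI_7049 had the highest ratio (1187-fold). The fitted rise was 5.52 ± 0.12 for PCI_0131, 2.93 ± 0.18 for PCI_4885, 2.07 ± 0.16 for PCI_0625 and 1.71 ± 0.17 for PCI_5120, with adjusted p from 8.52e-08 to 0.000154. In each gene both TL3D libraries lay above both plate libraries, as in 37.7% of tested genes.

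The comparison of TL3D with TL2D asks how leaf mycelium changed from the earlier to the later day. In each of the 5 genes both TL3D libraries lay below both TL2D libraries, a separation that 33.9% of tested genes showed in that direction. For PCI_6944 the nearest libraries were almost equal, at 1121 FPKM in TL3D and 1123 in TL2D. By limma 0 of 5 genes passed, where 3.30% of the 8222 tested genes were called lower. At an unadjusted p under 0.05 there were 4 of 5 (30.4% of tested genes, either direction), and by the FDR of the authors' deposited table also 4 of 5, where 8.74% of its genes were under 0.05 and lower. That table marks 1 of the 5, PCI_5120, as significant, since it also asks for a 2-fold change.

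**Figure D3:**
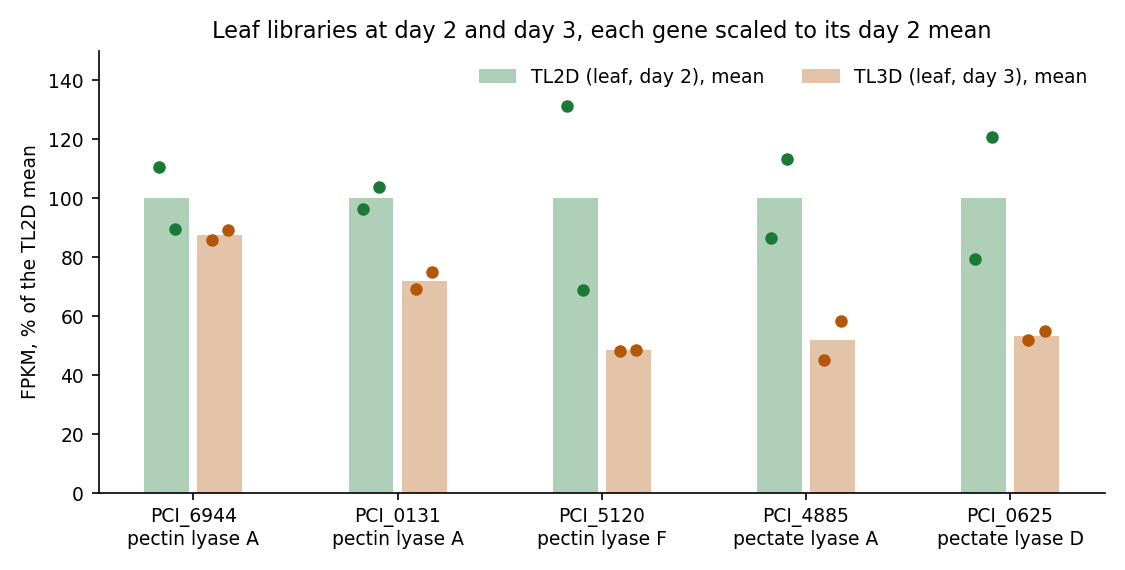
FPKM of each lyase gene in the leaf libraries as a percentage of its own TL2D mean, with bars for group means and points for libraries (n = 2 per group). At day 3 PCI_6944 stands at 85.8% and 89.3%, PCI_0131 at 69.1% and 75.02%, and the other 3 genes between 45.2% and 58.5%.

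PCI_6944 was 12.4% lower in mean FPKM at day 3 (log2 −0.18 ± 0.14, 95% interval −0.54 to 0.17, adjusted p = 0.419). PCI_0131 was 27.9% lower (log2 −0.47 ± 0.11, 95% interval −0.74 to −0.19, adjusted p = 0.0601). The 3 genes of lowest level had mean FPKM 1.87 to 2.06 times as high at day 2 as at day 3. For PCI_4885 the level was 48.2% lower (log2 −0.86 ± 0.20, 95% interval −1.37 to −0.35, adjusted p = 0.0617). For PCI_0625 it was 46.6% lower (log2 −0.73 ± 0.22, adjusted p = 0.101), and for PCI_5120 51.5% lower (log2 −0.81 ± 0.29, adjusted p = 0.147). The authors' deposited FDR for these genes was 0.421 for PCI_6944, 0.0136 for PCI_0131, 0.00339 for PCI_4885, 0.0368 for PCI_0625 and 0.0184 for PCI_5120. These day 3 calls therefore depend on the test, and the size of each change on which TL2D replicate is kept. PCI_5120 differed 1.91-fold between the TL2D replicates. Its fitted change was −1.21 without TL2D replicate 2 and −0.40 without TL2D replicate 1. PCI_6944 went from −0.34 without TL2D replicate 2 to −0.03 without TL2D replicate 1. With either left out, the fit holds no spread between TL2D libraries, so no p-value is given.

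Summed over the 5 genes, lyase transcripts made up 1.67 and 2.69 FPKM on plates, 1491 and 1235 on leaves at day 2, and 1146 and 1196 at day 3. On leaves that was 0.255% and 0.212% of the FPKM summed over all genes at day 2 and 0.191% and 0.195% at day 3. The 3 pectin lyase genes together exceeded the pectate lyase pair 4.91-fold and 13.4-fold on plates, 82.1-fold and 49.0-fold in TL2D, and 112-fold and 97.0-fold in TL3D. The plate ratios rest on pectate lyase sums of 0.282 and 0.186 FPKM, the latter with PCI_4885 listed at 0. Nothing is read from the plate ratios. The leaf groups did not overlap in this ratio. PCI_6944 made up most of the pectin lyase sum, and without that gene the other 4 lyases summed to 103 and 112 FPKM in TL2D and 68.3 and 75.1 in TL3D.

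The rest of the pectin pathway was described from 6 lists of product names, the lyases being 1 of them. The other 5 lists hold 64 genes. In TL2D against CK2D 13 of their 44 tested genes rose and 17 fell, beside 24.8% and 29.4% of all tested genes, with a median log2 change of −0.25 beside 3.79 for the lyases and −0.10 for all tested genes. As with the lyases, a gene low in 1 group could pass the filter on low values only through the other group. In TL2D against CK2D PCI_3991, PCI_7371, PCI_7054, PCI_7050 and PCI_8180, named below, needed their leaf libraries to pass. PCI_2491, PCI_8847 and PCI_0741 needed their plate libraries. The counts are therefore given as a description, and they rest on both plate libraries. Without CK2D replicate 1 there were 8 rises and 0 falls, beside 7.16% and 6.53% of all tested genes, and without CK2D replicate 2 there were 8 and 3, beside 7.49% and 6.15%. Of the genes named below, the TL2D calls of PCI_7054, PCI_8389, PCI_8847, PCI_5122, PCI_6816 and PCI_0741 were lost when either of these libraries was left out. That of PCI_2491 was lost without CK2D replicate 1. In TL3D against TL2D 4 of 40 rose and 1 fell, beside 6.77% and 3.30% of all tested genes, with a median of 0.03 beside −0.73 for the lyases and −0.02 for all tested genes. When either TL3D library was left out, all of these day 3 calls were lost, as were all calls of the comparison.

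**Figure D4:**
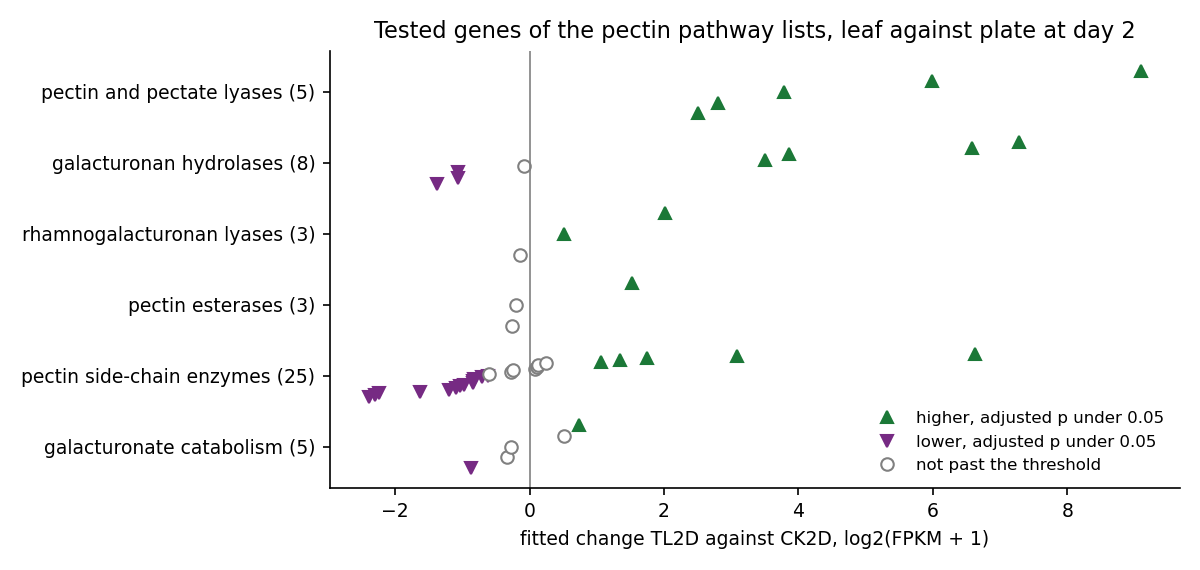
Fitted change of each tested pectin pathway gene in TL2D against CK2D on the log2(FPKM + 1) scale, by list, with the number of tested genes in brackets. Triangles pointing up are called higher, triangles pointing down are called lower and open circles did not pass (limma adjusted p under 0.05). All 5 lyases are on the right of 0, the galacturonan hydrolases split into 4 higher and 3 lower, and 13 of 25 side-chain genes are lower.

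Of the hydrolases that cut the same backbone, 8 of 13 were tested on leaves against plates at day 2. The median change of these 8 was 1.71, with 4 higher and 3 lower. Endopolygalacturonase A (PCI_6081), which cuts within the chain, had 1.88 and 2.5 FPKM on plates, 594 and 406 in TL2D, and 576 and 530 in TL3D. Its level on leaves lay between those of PCI_6944 and PCI_0131. Rhamnogalacturonase A (PCI_3991), which cuts the branched backbone, went from 0.568 and 0.862 FPKM to 28.5 and 19.9 in TL2D (log2 3.86 ± 0.22, adjusted p = 0.00107). Exopolygalacturonase C (PCI_2491), which trims chain ends, fell in TL2D by 1.38 ± 0.16 on the log2 scale and rose in TL3D against TL2D (log2 1.07, adjusted p = 0.0399). Polygalacturonase 1 (PCI_6785) had 39.2 and 41.5 FPKM on plates, 23.9 and 14.8 in TL2D, and 64.9 and 50.7 in TL3D. It rose from day 2 to day 3 (log2 1.56, adjusted p = 0.034), while all lyase genes were lower in each TL3D library than in each TL2D library. That separation was not particular to the lyases. The polygalacturonase gene PCI_2378 had 4.44 and 5.73 FPKM on plates, 601 and 553 in TL2D, and 433 and 434 in TL3D. Its log2 change from day 2 to day 3 was −0.41 (adjusted p = 0.0652). Of the 7 hydrolases tested between these days, 2 were called higher and 0 lower.

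Rhamnogalacturonate lyases cut the branched part of the backbone by the same kind of elimination. In the list 4 genes carried that name and 3 were tested, of which 2 rose in TL2D. PCI_7371 (rhamnogalacturonate lyase A) had 0.13 and 0.427 FPKM on plates, 3.73 and 4.63 in TL2D, and 2.16 and 2.78 in TL3D. That is a rise of 2.02 ± 0.21 at day 2 (adjusted p = 0.00322). PCI_7457 (rhamnogalacturonate lyase C) was already at 40.1 and 37.2 FPKM on plates and stood at 35.6 and 34.3 in TL2D (log2 −0.14 ± 0.10, adjusted p = 0.268). A further gene of that name, PCI_8389, had 6.41 and 5.49 FPKM on plates and 8.38 and 9.43 in TL2D. It was called higher (log2 0.51 ± 0.14, adjusted p = 0.0386).

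Pectinesterases produce the demethylated backbone on which pectate lyases act. Of 3 genes in the list, 1 rose in TL2D. Pectinesterase A (PCI_7054) had 0.0897 FPKM in 1 plate library and was listed at 0 in the other, and had 2.78 and 1.4 FPKM in TL2D and 1.99 and 1.02 in TL3D. Its rise was 1.53 ± 0.27 (adjusted p = 0.0118), in a gene tested only because of its leaf libraries. The other pectinesterase gene, PCI_0846, changed by −0.20 and did not pass (adjusted p = 0.428). The list also holds PCI_0665, annotated as a rhamnogalacturonan acetylesterase and not a pectinesterase. That gene changed by −0.27 and did not pass (adjusted p = 0.358).

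Of 25 tested genes for pectin side chains, 5 rose and 13 fell in TL2D, beside 24.8% and 29.4% of all tested genes, with a median of −0.62. Without CK2D replicate 1 the median was −0.72, and without CK2D replicate 2 it was −0.55. Fewer genes passed over the whole comparison when either was left out, so the counts rest on both plate libraries. The arabinofuranosidase axhA-1 (PCI_7050) rose most, from 0.25 and 1.22 FPKM to 163 and 164, and fell at day 3 to 86.2 and 82.4 (log2 −0.95 ± 0.09, adjusted p = 0.016). Enzymes of this name also remove arabinose from xylan. The arabinogalactan galactanase PCI_8180 rose by 3.08, while the arabinofuranosidase axhA (PCI_8847) fell by 2.39. The list also holds araR (PCI_5122), annotated as the activator of arabinan breakdown and not an enzyme. It fell from 12.3 and 12.4 FPKM to 7.71 and 6.64 (log2 −0.71 ± 0.13, adjusted p = 0.0122). From day 2 to day 3 the largest rise in this list was that of the α-L-rhamnosidase PCI_1152, from 0.772 and 0.596 FPKM to 4.37 and 3.2.

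The pathway that breaks down released galacturonic acid showed smaller changes than the lyases in both comparisons with CK2D. Of 6 genes named for it, 5 were tested in TL2D against CK2D, 1 rose and 1 fell, both L-galactonate dehydratases, which carry out the second step. PCI_6816 rose from 9.55 and 9.8 FPKM to 15.8 and 17.7 (log2 0.73 ± 0.12, adjusted p = 0.0092) and had 11.2 and 10.3 at day 3. PCI_0741 fell from 2.24 and 2.66 FPKM to 0.978 and 0.8. The D-galacturonate reductase PCI_6781, of the first step, had 17.8 and 21.4 FPKM on plates, 25.2 and 31.8 in TL2D, and 19.5 and 19.8 in TL3D (adjusted p = 0.054 for TL2D against CK2D). The aldolase of the third step (PCI_5764, annotated L-threo-3-deoxy-hexylosonate aldolase) was added after its values were seen, because its spelling escaped the search terms. It stood at 8.53 and 11.8 FPKM on plates and 9.27 and 12.1 in TL2D (log2 0.07, adjusted p = 0.788). The list also holds PCI_6578 and PCI_8760, D-galactonate dehydratases, which belong to the breakdown of another sugar acid. In TL3D against TL2D no gene of this list or of the lyases was called, with median log2 changes of −0.43 and −0.73. There PCI_6816 (−0.59) and PCI_6781 (−0.50) had larger fitted falls than PCI_6944 (−0.18) and PCI_0131 (−0.47), and smaller ones than the other lyases.

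Most markers of conidia and conidiophores were lower on leaves at day 2, where the lyases were higher. Their 6 genes summed to 783 to 882 FPKM in CK2D, 230 to 341 in TL2D and 495 to 596 in TL3D, and none was at 0. The regulator of conidiophore formation brlA (PCI_2178) made up more of each sum than any other. In TL2D against CK2D the log2 change was −1.38 for brlA, −2.33 for abaA (PCI_1856), −2.80 for wetA (PCI_1706), −1.94 for vosA (PCI_8689) and −1.50 for RRT8 (PCI_7062), all called lower (adjusted p from 0.00168 to 0.0102), while hymA (PCI_5355) was at 0.23 and did not pass (adjusted p = 0.102). Without CK2D replicate 1 only 2 of these 5 calls held, those of wetA and RRT8, and without CK2D replicate 2 also that of vosA. At day 3 they lay nearer to plate levels than at day 2, hymA included. In TL3D against CK2D vosA was at −0.17, RRT8 at −0.02 and hymA at −0.04, none of them called. There wetA at −0.33, abaA at −0.87 and brlA at −0.88 were called lower, as were 30.2% of all tested genes. The wetA call was lost without CK2D replicate 1 (log2 −0.30) and without TL3D replicate 1 (log2 −0.21). The lyases were higher by 1.71 to 8.92 in the same comparison. All listed genes carry PCI_ numbers of the fungus, so a search for plant leaf names could not detect tobacco RNA, and nothing is read from it. None of a photosystem, chlorophyll or Rubisco matched. The 6 matches are PCI_ genes with chloroplast in their product names. They summed to 137 to 161 FPKM on plates, 71.6 to 74.9 in TL2D and 71.4 to 84.7 in TL3D. The part of conidiation in the lyase difference was not tested.

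The genes nearest in pattern to each lyase gene were found by the root mean square difference of log2(FPKM + 1) values, centred per gene, over the 6 libraries and 8407 genes. For PCI_6944 the nearest were a fungal cellulose binding domain gene (PCI_7585, 0.588), endopolygalacturonase A (PCI_6081, 0.8) and endo-1,4-beta-xylanase A (PCI_7049, 1.05), an enzyme of xylan breakdown. No gene came closer to it, whereas PCI_0131 had a neighbour at 0.0717, the O-methyltransferase gene mpaG (PCI_4673). The others nearest to PCI_0131 were a xyloglucan-specific endoglucanase (PCI_0448, 0.123) and the dehydrogenase prx6 (PCI_5646, 0.19). For PCI_4885 they were the siderophore transporter mirB (PCI_0857, 0.152), a secreted protein gene (PCI_7165, 0.162) and cellobiose dehydrogenase (PCI_9370, 0.19).

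For PCI_0625 the nearest were a flavohemoprotein gene (PCI_7481, 0.0802), a notoamide cluster gene (PCI_7711, 0.0854) and an L-ornithine monooxygenase gene (PCI_2582, 0.136). For PCI_5120 they were an amidase gene (PCI_6117, 0.145), an acyltransferase gene (PCI_5363, 0.173) and a hypothetical protein gene (PCI_4375, 0.177). Among the lyases themselves the closest pair was PCI_5120 and PCI_0625 (0.42) and the most distant was PCI_6944 and PCI_5120 (3.27). These neighbours depend on the added constant. With 0.1 FPKM in its place, 2 of the 3 nearest genes of PCI_6944 remained, 1 of PCI_4885 and 0 of each of the other genes.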

How the data were processed

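Each library's FPKM values were deposited by the authors in a pair of tables, per the file headers. Per the submitters' processing notes Cufflinks was used, with no version; the aligner, build and annotation are not given. The deposited fold column is the ratio of the mean FPKM values of a pair of groups, and its log2 was deposited beside it. Both were recomputed from the FPKM columns, and 100% of genes matched within 0.001 on the log2 scale. The FDR in the authors' deposited table is an adjusted p-value whose test is not given. TL2D columns were identical in both tables. Whether low FPKM values fall in whole-read steps was not tested.

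A gene was tested where 2 or more of the 4 libraries compared had 1 FPKM or more. Tests used limma 3.58.1 in R 4.3.3 on log2(FPKM + 1), with eBayes, a trend and 2 residual degrees of freedom. Benjamini-Hochberg adjustment ran over all genes of a comparison, with calls under 0.05. Lists were matched by product name and described by counts and medians. Named genes were all 5 lyases, each list's largest called rise and fall per comparison, the 3 nearest genes in pattern and the 2 gene numbers on each side of a lyase; further pathway genes were named after their values were seen. Members and lists were chosen with earlier results of these data known. Positions and sequences were not used, because 0 gene numbers matched the 11657 genes of the RefSeq table. Alternatives were each replicate left out, the replicate block, 0.1 FPKM as pseudocount, no filter, and scaling by the upper quartile or by the median log ratio. Further ones were 1 fit of all 6 libraries and the authors' FDR. With a replicate left out, the spread within groups came from the other group's pair. Calls of those fits therefore do not measure the spread of the group left with 1 library.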

Additional observations from a re-analysis of the deposited data

How the results depend on the processing

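In TL2D against CK2D and TL3D against CK2D the 5 lyase genes kept their direction and their call under every alternative except PCI_5120 in TL2D against CK2D, whose fitted change was 2.11 to 2.92 with 1 library left out. In TL3D against TL2D no direction changed. With 1 library left out, PCI_6944 ran from −0.34 to −0.031, PCI_0131 from −0.52 to −0.41, PCI_5120 from −1.21 to −0.40, PCI_4885 from −1.04 to −0.68 and PCI_0625 from −0.998 to −0.47, and 0 to 4 of the 5 were called. Over all genes this gave 0 to 3251 calls, against 828 with all libraries, with 0 when either TL3D library was left out. The other pectin pathway genes then gave 0 to 12 rises and 0 to 7 falls. In TL2D against CK2D the same gave 1131 to 5229 calls, against 4493, with 8 to 15 rises and 0 to 17 falls of other pectin pathway genes. A fit over all 6 libraries called PCI_0131 (−0.47) and PCI_4885 (−0.86) at day 3, 2 lyases in all, and 1515 genes. The authors' FDR called PCI_0131 (−0.47), PCI_5120 (−1.04), PCI_4885 (−0.95) and PCI_0625 (−0.91), 4 lyases, 1842 genes and 7 falls of other pectin pathway genes. The cause of these differences was not tested. With the replicate number as a block, PCI_4885 passed at day 3 (−0.86, adjusted p = 0.0428), 1 lyase in all, and no other lyase call changed. The labels do not say that a number marks a shared batch. Same-numbered deviations correlated at −0.08, 0.17 and −0.25 in the 3 comparisons, taken in the order TL2D against CK2D, TL3D against TL2D and TL3D against CK2D. Crossing the numbers in the last, an alternative chosen after seeing the data, gave 5372 calls against 4368 with the same numbers. Read depth is unknown, so how far it limits the plate values cannot be stated.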

Other observations

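The 2 gene numbers on each side of every lyase gene, 20 in all, were looked up, with no genome positions to show that neighbouring numbers lie next to each other. In TL2D against CK2D 6 of the 17 tested rose and 4 fell, beside 24.8% and 29.4% of all tested genes. When either CK2D library was left out, 2 rose and 1 fell, and these were the first 3 genes named here. Beside the pectate lyase gene PCI_4885, the monooxygenase gene PCI_4884 had 6.8 and 7.46 FPKM on plates, 42.3 and 50.6 in TL2D and 29.3 and 29.8 in TL3D. Near the pectate lyase gene PCI_0625, a transmembrane protein gene (PCI_0623) had 0.572 and 0.58 FPKM on plates, 13.5 and 31.2 in TL2D and 6.46 and 6.65 in TL3D, and a hypothetical protein gene (PCI_0627) fell from 60.9 and 74.2 FPKM to 4.07 and 2.84. The pectin lyase F gene PCI_5120 stands 2 numbers from araR (PCI_5122), whose values are given above. On either side of PCI_6944, the amidase gene PCI_6943 and the acyl-CoA ligase gene PCI_6945 changed by −0.21 and 0.22 at day 2 and did not pass (adjusted p = 0.363 and 0.227).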
